A study of Mus musculus with 4 samples.

Results

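The genes described here are mouse enzymes that modify or splice transfer RNA (tRNA) and other RNAs, together with the subunits they work with. They were taken by name: every gene on the array whose symbol begins with Trmt, Nsun, Tsen, Adat, Qtrt or Mettl, with Pus followed by a digit or l, or with Elp followed by a digit. The rule found 67 of 18193 measured genes. It used no measured value, except that, where several probe sets measure a gene, the one with the highest mean over the 4 arrays stands for it. The rule was, however, chosen with earlier results of these data known, as were the role groups used below. The label covers most of them but not all: 52 encode enzymes of RNA or their subunits, while 15 Mettl genes encode methyltransferases of proteins, enzymes of small molecules or proteins of less certain substrate, and include 1 pseudogene.

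Expression was measured with Affymetrix arrays in epithelium from crypts of the jejunum, the compartment in which stem cells and their progeny divide. A knockout and a control group were compared, with 2 arrays each that the titles call biological replicates. In knockout mice Yy1 was floxed, and a Cre that tamoxifen activates (Vil-Cre-ERT2) was expressed from the Villin promoter, which is active in gut epithelium; tamoxifen was given for 4 days. Strain was given as C57BL/6J enriched for all 4 samples. The other group is called only control, and the sources used here state no genotype for it. A tamoxifen time of 4 days is recorded for all 4 samples, but the wording of the treatment label does not settle whether the control mice received tamoxifen. Effects of Cre-ERT2 or of tamoxifen therefore cannot be told apart from loss of Yy1. Neither the age of the mice nor how many went into a sample is stated there.

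A tRNA leaves transcription as a precursor that must be trimmed, in some cases spliced, and chemically modified at many of its bases before it works well in translation. Methylated bases and pseudouridines in the body of the molecule help it fold and protect it from decay, whereas modifications at the wobble base of the anticodon set which codons it reads. Related enzymes methylate ribosomal, small nuclear and messenger RNA, and a separate set serves the RNAs of mitochondria. Dividing crypt cells make much protein, and YY1, the deleted zinc finger factor, binds near the start sites of many genes.

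Because YY1 is known to bind next to start sites, promoters were searched for the longer part of its consensus, GCCATNTT, where N is any base, which reads AANATGGC on the opposite strand. The window ran from 250 bases before to 50 bases after the RefSeq start site, in the assembly GRCm38.p6. Of 54 members with a promoter in the table, which lists several for some genes, 7 held the motif in at least 1 (13%), against 1163 of 14368 measured genes (8.09%). A gene was called higher or lower in the knockout at a Benjamini-Hochberg adjusted p under 0.05 by limma, fitted over all genes on log2(intensity + 16), and 13.4% of all genes were called higher and 10.9% lower. Among all measured genes the motif was held by 203 of 1576 called lower (12.9%), by 151 of 2016 called higher (7.49%) and by 809 of 10776 not called (7.51%). Among the members it was held by 2 of 26 called higher, 1 of 4 called lower and 4 of 24 not called. These shares are a description of sequence, without a test, and a match does not show that YY1 binds there.

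The promoters of Qtrt1, Mettl16 and Mettl3 show where the letters lie in members that were called and in Mettl3, the catalytic subunit of the messenger RNA methyltransferase. Each is given 5′ to 3′ on the strand of its gene, with matches in capitals. The Qtrt1 window is chr9:21411587-21411886, plus strand, with a match that starts at base 16 after the start site. Qtrt1 fell. For Mettl16 the window is chr11:74770613-74770912, plus strand, and the match starts at base 1; Mettl16 rose. Mettl3, at chr14:52305075-52305374 on the minus strand, has 2 matches, which begin 106 and 82 bases before the start site, and its level did not pass the test.
Qtrt1: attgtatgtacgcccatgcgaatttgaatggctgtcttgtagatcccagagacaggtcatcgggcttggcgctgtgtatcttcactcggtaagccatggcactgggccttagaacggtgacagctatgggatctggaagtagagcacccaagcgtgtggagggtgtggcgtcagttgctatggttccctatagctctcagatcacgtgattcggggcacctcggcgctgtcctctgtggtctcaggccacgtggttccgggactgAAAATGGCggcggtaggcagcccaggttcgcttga
Mettl16: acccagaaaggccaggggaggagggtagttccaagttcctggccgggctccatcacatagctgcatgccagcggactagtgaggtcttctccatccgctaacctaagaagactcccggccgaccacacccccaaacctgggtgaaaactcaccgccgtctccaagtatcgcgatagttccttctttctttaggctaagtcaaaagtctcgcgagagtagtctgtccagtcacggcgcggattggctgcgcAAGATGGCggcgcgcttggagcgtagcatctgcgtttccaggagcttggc
Mettl3: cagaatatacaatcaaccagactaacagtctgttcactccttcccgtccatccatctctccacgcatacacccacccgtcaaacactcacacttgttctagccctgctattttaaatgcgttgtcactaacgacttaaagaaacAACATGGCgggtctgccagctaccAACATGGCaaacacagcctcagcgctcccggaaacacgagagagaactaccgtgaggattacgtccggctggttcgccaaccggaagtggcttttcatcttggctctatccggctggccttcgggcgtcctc

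A second set of promoters belongs to genes that work beside the members. From a list of 97 measured genes of the same pathways that the naming rule leaves out, 3 fell, and each of the 3 has a promoter with the motif. Only the fall of Hsd17b10 was called with any 1 array left out, while those of Rpusd4 and Pcif1 were each lost in 3 of the 4 such fits. Hsd17b10 is at chrX:152001646-152001945 with a match from base 10, Rpusd4 at chr9:35267631-35267930 with a match from base 7, and Pcif1 at chr2:164879118-164879417 with a match 58 bases before the start and another from base 23, each on the plus strand. Pcif1 has a further promoter, chr2:164879802-164880101, without the motif, so 3 of the 4 promoters of these genes hold it. These 3 were singled out after their values were seen. Over the whole partner list the motif was held by 14 of 86 genes with a promoter (16.3%), by 2 of the 44 that rose and by 9 of the 39 not called.
Hsd17b10: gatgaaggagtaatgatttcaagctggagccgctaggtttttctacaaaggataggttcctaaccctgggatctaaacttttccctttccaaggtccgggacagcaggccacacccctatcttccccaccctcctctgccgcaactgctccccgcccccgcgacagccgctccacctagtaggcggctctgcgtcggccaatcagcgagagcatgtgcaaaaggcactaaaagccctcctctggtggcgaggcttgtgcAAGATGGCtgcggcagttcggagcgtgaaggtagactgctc
Rpusd4: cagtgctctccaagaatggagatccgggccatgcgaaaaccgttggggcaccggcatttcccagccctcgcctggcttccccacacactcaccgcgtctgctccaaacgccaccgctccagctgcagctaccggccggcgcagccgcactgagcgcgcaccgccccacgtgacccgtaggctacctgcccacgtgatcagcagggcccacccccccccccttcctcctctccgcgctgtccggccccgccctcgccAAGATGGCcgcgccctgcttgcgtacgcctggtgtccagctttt
Pcif1: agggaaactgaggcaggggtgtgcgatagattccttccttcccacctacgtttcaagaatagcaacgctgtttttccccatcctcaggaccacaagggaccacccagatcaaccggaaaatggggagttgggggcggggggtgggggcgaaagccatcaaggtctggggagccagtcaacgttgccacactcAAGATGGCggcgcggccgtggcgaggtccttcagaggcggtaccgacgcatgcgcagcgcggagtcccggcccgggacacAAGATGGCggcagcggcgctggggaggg

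Most members were higher in the knockout. Of the 67 genes, 35 rose, 4 fell and 28 did not pass the test. In the same limma fit 13.4% of all genes were called higher and 10.9% lower, against 52.2% and 5.97% of the members. Without control replicate 2 the counts were 21 higher and 1 lower, and the shares over all genes 6.26% and 5.75%. Without control replicate 1 they were 26 and 2, with 7.26% and 5.67% of all genes, and without knockout replicate 2 they were 38 and 2, with 12.6% and 11.2%. The median log2 difference, knockout minus control, was 0.42 over the members and 0.01 over all genes, and on this scale the change of dim genes is understated. At a change of at least 1.5-fold, 23 members rose and 2 fell, where the shares over all genes were 6.9% and 6.28%. Both knockout arrays lay above both control arrays in 49 members and below both in 9, against 32.7% and 29.3% of all genes. A further fit took only the 10724 genes brighter than the median of all probe sets, and 54 members were among them. There 35 of the 54 members were called higher and 3 lower, beside 22.1% and 17.2% of these brighter genes.

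The 52 RNA genes and the 15 other Mettl genes differed in their counts. Among the former 31 rose and 2 fell, with a median log2 difference of 0.52; among the latter 4 rose and 2 fell, with a median of 0.10. Whether these shares differ was not tested. Over all genes 13.4% were called higher and 10.9% lower, and the 13.3% of other Mettl genes that fell is near that share. The counts by role given below stand beside the same shares. Within the RNA genes the share that rose was highest for pseudouridine synthases, at 4 of 5, and lowest for enzymes of mitochondrial RNA, at 3 of 8.

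**Figure D1:**
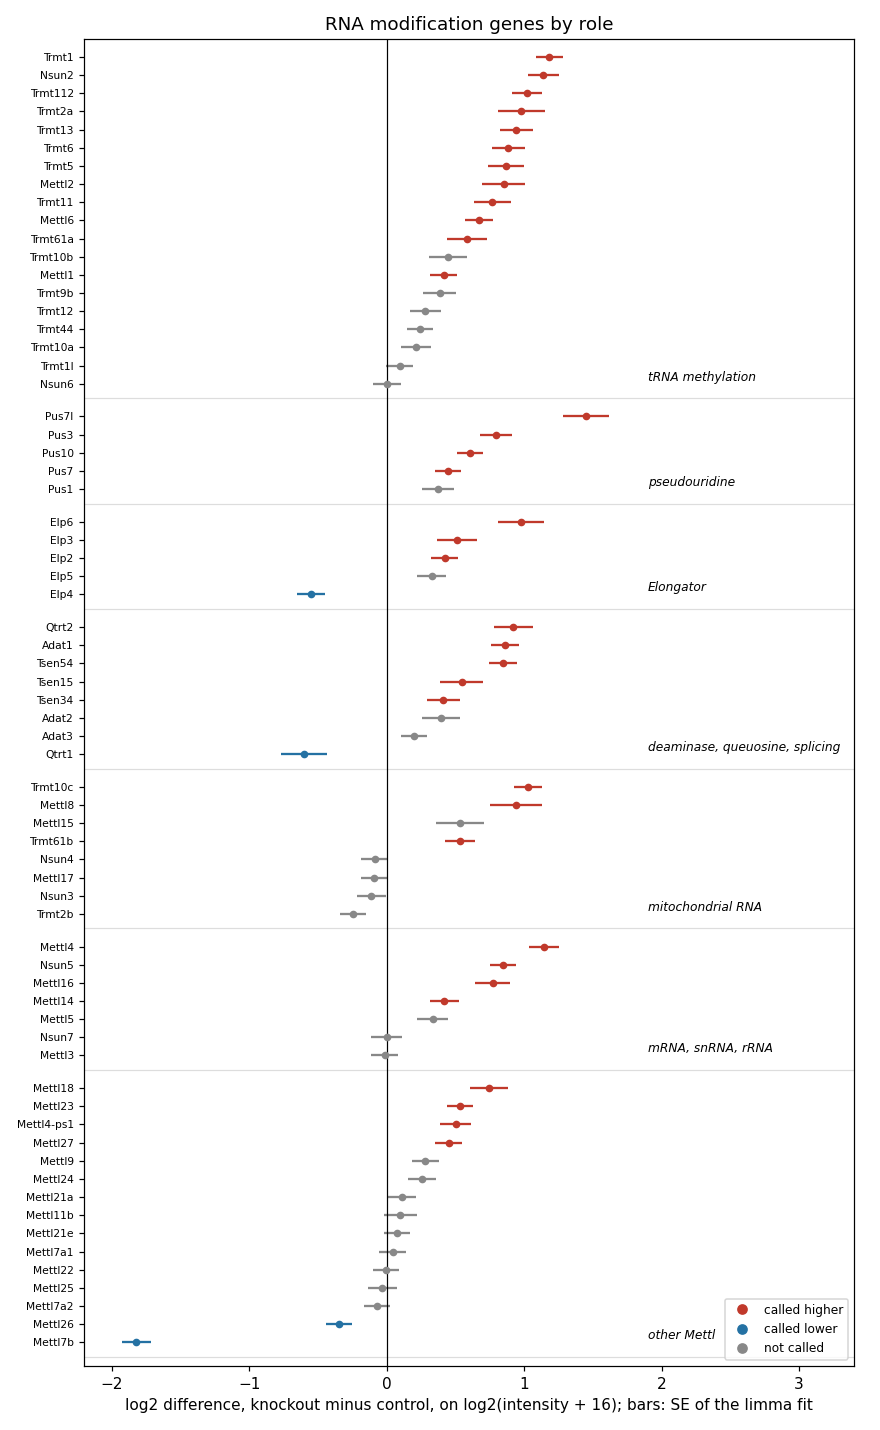
Log2 difference (knockout minus control, on log2(intensity + 16), x axis) of each of the 67 members, sorted within role; points are estimates from 2 arrays per group, bars are the SE of the limma fit, and colour marks the call. Red points fill most of the upper panels, the tRNA methylation panel holds 12 higher and 0 lower genes, and the largest fall is Mettl7b at -1.82.

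**Figure D2:**
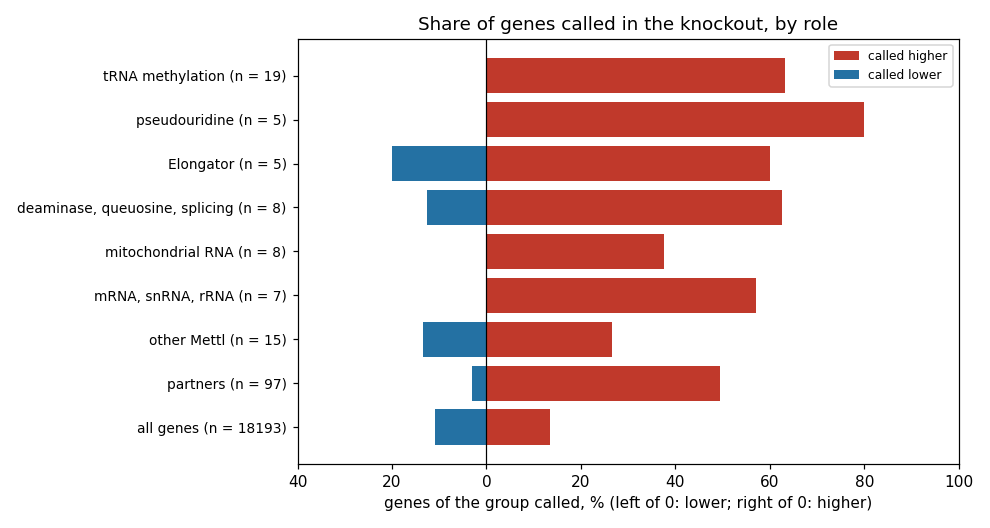
Share of genes called higher (right of 0) and lower (left of 0) in the knockout, in % of the genes of each role, of the partner list and of all genes. Every role has a larger share of higher genes than the 13.4% of all genes, and the other Mettl genes, at 26.7%, lie closest to it.

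Some facts about the arrays stand beside these counts. Yy1 itself was at 1648 and 1681 in control replicates 1 and 2 and at 69.4 and 68.1 in knockout replicates 1 and 2 (brightest of 4 probe sets; log2 difference -4.31 ± 0.09, SE). The position of these probe sets relative to the floxed exon was not examined. Array medians were between 139 and 143, and medians of 27 control probe sets for Bacillus genes, taken as background, between 31.9 and 35.6. Epithelial markers were bright in all arrays (Epcam, 9077 to 10334). The B cell marker Cd79a, at 35.6 to 40.4, was near background, as was the endothelial marker Tek, at 16.6 to 32.4. These were the dimmest of their lists: of 9 immune markers 0 were at background, and of 4 endothelial markers 1. The immune marker Ptprc was at 293 to 458 and the endothelial marker Kdr at 179 to 190. Of 6 markers of dividing cells 5 rose, and their summed intensity was 11506 to 11750 in control and 16949 to 17017 in knockout arrays. Enterocyte markers moved the other way, with 5 of 8 lower and sums of 75807 to 76507 and 41263 to 58534; no marker was at 0. Of immune markers 3 of 9 were lower, with sums of 12246 to 12677 in control and 9618 to 11284 in knockout arrays. Most of these sums came from Lyz2 (7285 to 7977) and H2-Aa (3244 and 3347 in controls, 1268 and 2071 in knockouts). Of mesenchymal markers 2 of 8 were lower (sums 1327 to 1503 and 1059 to 1265). Among crypt markers 1 of 6 was lower, among epithelial markers 1 of 6 and among endothelial markers 0 of 4. As a measure of RNA integrity, the Gapdh control probe set at the 3′ end exceeded that at the 5′ end on the log2 scale by 1.44 and 1.40 in control and 1.71 and 1.65 in knockout arrays. The part of dividing cells, enterocytes and RNA quality in the members' differences was not tested. In these bulk samples fewer cells of a type and less RNA per cell cannot be told apart.

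The knockout arrays also differed from each other. Knockout replicate 1 was above knockout replicate 2 in 34 of the 35 members that rose, and in 80.5% of all 2442 genes called higher. Control replicate 1 was above control replicate 2 in 26 of these 35, and in 58.7% of all genes called higher. The mean over the 52 RNA genes was 8.57 and 8.49 in controls and 9.13 and 8.97 in knockouts, on the log2(intensity + 16) scale. The mean of the enterocyte markers was 13.07 in both controls, 11.69 in knockout replicate 1 and 12.40 in knockout replicate 2. Of the knockout arrays, replicate 1 had the higher mean of RNA genes and the lower mean of enterocyte markers. The controls differed in the mean of RNA genes but hardly in that of enterocyte markers. Whether these means are related was not tested.

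Methyltransferases of cytosolic and nuclear tRNA were the largest group, and 12 of 19 rose, 10 of them by at least 1.5-fold, while none fell. Of all genes 13.4% were called higher, 6.9% higher by at least 1.5-fold, and 10.9% lower. Trmt1, which dimethylates a guanosine at the junction of the D and anticodon arms, had intensities of 334 and 359 in controls and 820 and 793 in knockouts (log2 difference 1.18 ± 0.10, adjusted p = 0.000776). Nsun2, a cytosine methyltransferase of tRNA and other RNAs, was at 514 and 483 against 1216 and 1026 (1.14 ± 0.12, adjusted p = 0.00130). Trmt112, the small protein that several methyltransferases need in order to be stable and active, was at 1214 and 1402 against 2691 and 2636 (1.02 ± 0.11, adjusted p = 0.00150). In these 3 genes both knockout arrays lay above both controls, as in 32.7% of all genes, and they lay close together beside their distance from the controls. The probe sets used for Trmt1 and Trmt112 are of types (x_at and s_at) taken here as less specific to a gene. The other 2 probe sets of Trmt1, of more specific types, were also called higher, but each by only 0.54. A second probe set of Trmt112, more specific but dim at 53.7 to 71.1, gave only 0.27 ± 0.10 and was not called.

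Other writers of tRNA methyl groups rose by similar amounts. Trmt2a, which makes methyluridine in the T loop, was at 693 and 551 in controls and 1439 and 1058 in knockouts (0.98 ± 0.17), and 4 of its 5 further probe sets, 1 of them at background, were also called higher. Trmt13, a ribose methyltransferase of the acceptor stem, went from 415 and 358 to 806 and 710 (0.94 ± 0.12). Its other probe sets disagreed: 2 were called higher (0.87 and 0.66) and 2 were not, of which the brighter was at 300 and 325 against 362 and 328 (0.14). Trmt5, which methylates the guanosine next to the anticodon and so guards the reading frame, went from 176 and 169 to 372 and 291 (0.87 ± 0.13). These genes had adjusted p-values between 0.00246 and 0.00756, and in each of them the lower knockout array exceeded both controls, as in 32.7% of all genes.

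The adenosine methyltransferase of the T loop is a complex of the catalytic subunit Trmt61a and its partner Trmt6, and both rose. Trmt6 was at 501 and 485 in controls and at 1013 and 843 in knockouts (0.89 ± 0.12), and Trmt61a at 2796 and 2125 against 3858 and 3480 (0.58 ± 0.15, adjusted p = 0.0267). Trmt61a varied more between controls, and its adjusted p was 0.140 without control replicate 2 and 0.119 without knockout replicate 1. Mettl2 (0.85 ± 0.16) and Mettl6 (0.67 ± 0.10), both cytosine methyltransferases of the anticodon loop, rose, as did Trmt11 (0.77 ± 0.14), a guanosine methyltransferase that works with Trmt112. Mettl1, the catalytic subunit of the tRNA 7-methylguanosine enzyme, went from 289 and 268 to 380 and 372 (0.41 ± 0.10, adjusted p = 0.0220). Without control replicate 1, control replicate 2 or knockout replicate 1 the adjusted p of Mettl1 was 0.0724, 0.144 and 0.0771. A further probe set was not called for Trmt6 (0.20), Trmt11 (0.11) and Mettl1 (0.18), each dimmer than the one used.

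The other 7 members of this group did not pass. They were Trmt10b (0.44 ± 0.14, adjusted p = 0.0574; 0.0452 without knockout replicate 2), Trmt9b (0.38 ± 0.12; -0.01 in another probe set), Trmt12 (0.28 ± 0.11), which acts in wybutosine synthesis, Trmt44 (0.24 ± 0.09), Trmt10a (0.21 ± 0.11), Trmt1l (0.09 ± 0.10) and Nsun6 (0.00 ± 0.10). For Trmt10a, a guanosine methyltransferase, the probe sets disagreed. Its brightest one, at 316 and 372 in controls and 405 and 395 in knockouts, stands for the gene, while the others went from 130 and 118 to 325 and 226 (1.04 ± 0.16) and from 67.6 and 47.9 to 154 and 108 (0.99 ± 0.18), and both were called higher over all probe sets.

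Pseudouridine synthases, which turn uridine into its carbon-linked isomer, rose in 4 of 5 cases. Pus7l had the largest rise of all members, from 124 and 112 to 420 and 290 (1.45 ± 0.17, adjusted p = 0.00201), and its other probe set gave 0.69 ± 0.11. Pus3, the synthase of the anticodon stem, went from 233 and 224 to 445 and 373 (0.79 ± 0.12), and Pus10, which also takes part in microRNA processing, from 222 and 240 to 363 and 357 (0.61 ± 0.10). Of 2 further probe sets of Pus3, 1 was not called (0.51). Pus7 was at 382 and 378 against 540 and 508 (0.45 ± 0.10, adjusted p = 0.0158). Its adjusted p was 0.0825, 0.0927 and 0.0653 without control replicate 1, control replicate 2 and knockout replicate 1. Pus1, which acts in nucleus and mitochondria, stood at 613 and 512 and at 757 and 706 and missed the threshold (0.37 ± 0.12, adjusted p = 0.0598). Its knockout arrays both lay above both controls, as in 32.7% of all genes.

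**Figure D3:**
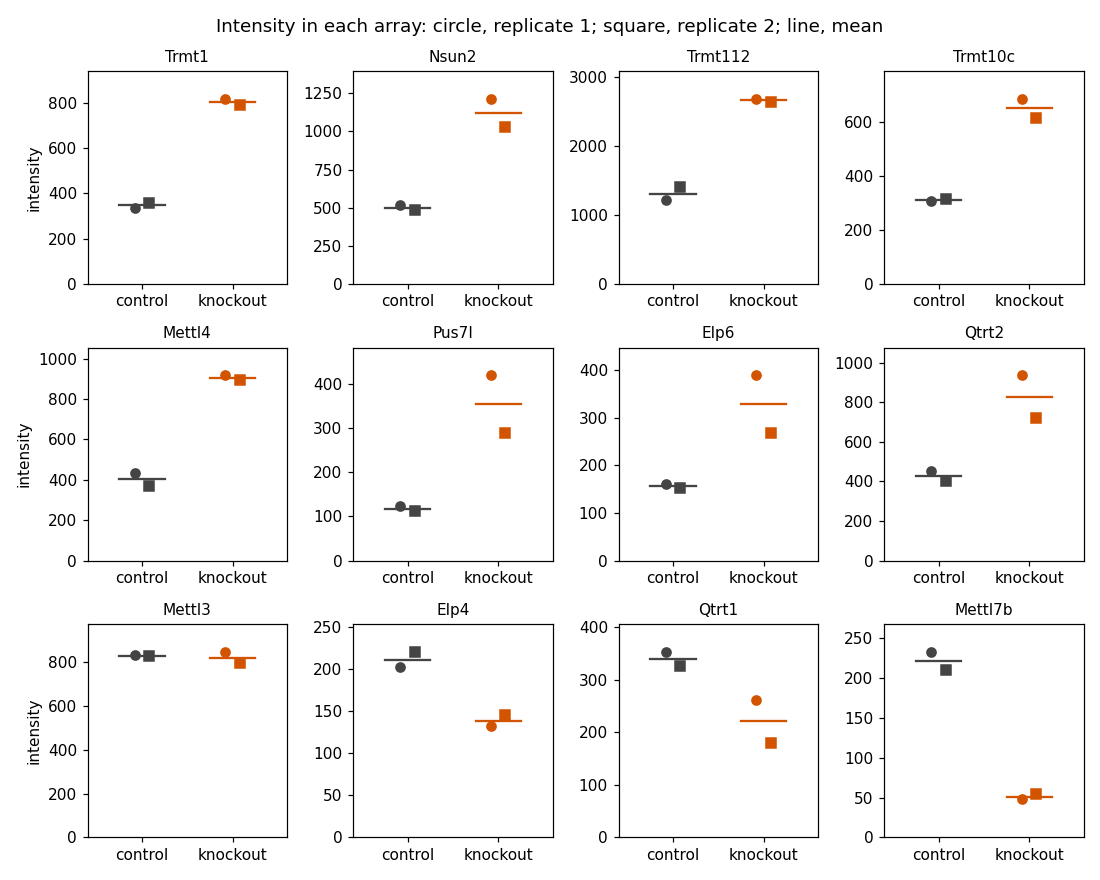
Intensity (y axis, linear, from 0) of 12 members in each array; circles are replicate 1, squares replicate 2 and lines group means, with n = 2 arrays per group. Groups do not overlap in any panel but Mettl3, the only gene shown that was not called. Over all genes both knockout arrays lay above both controls in 32.7% and below both in 29.3%. Pus7l, Elp6, Qtrt2 and Qtrt1 show the wider spread between knockout arrays for the height of their panels, and Mettl7b falls from 222 to 51.2 on average.

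Elongator, which begins the side chain made on wobble uridines, did not move as a unit: of 5 subunits measured, 3 rose and 1 fell. Elp6 went from 161 and 152 to 389 and 267 (0.98 ± 0.17, adjusted p = 0.00692), and Elp4, which sits with Elp5 and Elp6 in the same ring-shaped subcomplex, fell from 202 and 220 to 132 and 145 (-0.55 ± 0.10, adjusted p = 0.00927). Both probe sets of Elp6 and both of Elp4 were called in the same direction as the gene. Elp3, the catalytic subunit, was at 1157 and 1173 against 1929 and 1444 (0.51 ± 0.14, adjusted p = 0.0413), and the scaffold subunit Elp2 at 3354 and 3549 against 4794 and 4470 (0.42 ± 0.10, adjusted p = 0.0216). Elp5 was higher in both knockout arrays but did not pass (0.33 ± 0.11, adjusted p = 0.0648; 0.0499 without knockout replicate 2). The calls of Elp2 and Elp3 were lost without control replicate 1 (adjusted p = 0.130 and 0.151), control replicate 2 (0.0808 and 0.142) or knockout replicate 1 (0.0876 and 0.133), and that of Elp4 without control replicate 2 (0.0697).

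The enzyme that exchanges guanine for queuine at the wobble base is a dimer, and its subunits went opposite ways. Qtrt1, the catalytic subunit, fell from 352 and 325 to 262 and 180 (-0.60 ± 0.17, adjusted p = 0.0377). Qtrt2, the accessory subunit, rose from 453 and 401 to 937 and 720 (0.92 ± 0.14, adjusted p = 0.00496), with its second probe set at 0.80 ± 0.16. The knockout arrays of Qtrt1 differed from each other by more than the controls did, and its adjusted p was 0.160, 0.105 and 0.0870 without control replicate 1, control replicate 2 and knockout replicate 2. Qtrt1 has 1 probe set.

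Adenosine deaminases of tRNA make inosine. Adat1, which acts beside the anticodon of alanine tRNA, rose from 196 and 203 to 394 and 356 (0.86 ± 0.10, adjusted p = 0.00205), with a dimmer probe set at 0.74 called higher and another at 0.25 not called. The wobble deaminase is a dimer of Adat2 and Adat3. Adat2 stood at 165 and 126 against 205 and 184 (0.39 ± 0.14, adjusted p = 0.0855) and Adat3 at 66.5 and 71.4 against 80.2 and 82.5 (0.20 ± 0.10, adjusted p = 0.199), so neither passed. For each gene both knockout arrays lay above both controls, as in 32.7% of all genes. Adat2 passed at 0.0477 without control replicate 1.

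All 3 measured subunits of the tRNA splicing endonuclease, which cuts introns from precursor tRNA, rose. Tsen54 went from 122 and 117 to 240 and 214 (0.84 ± 0.10, adjusted p = 0.00224). Tsen15 was at 264 and 194 against 363 and 313 (0.54 ± 0.15, adjusted p = 0.0426) and Tsen34, a catalytic subunit, at 309 and 263 against 409 and 360 (0.41 ± 0.12, adjusted p = 0.0461). The calls of Tsen15 and Tsen34 were lost with some arrays left out: without control replicate 2 their adjusted p was 0.216 and 0.254, and without knockout replicate 1 it was 0.179 and 0.182. Tsen34 also missed the threshold without control replicate 1 (0.0677), and Tsen15 without knockout replicate 2 (0.0543).

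Among 8 enzymes of mitochondrial RNA 3 rose and none fell, where 13.4% of all genes were called higher and 10.9% lower. Trmt10c, a methyltransferase that is also a subunit of mitochondrial RNase P, went from 308 and 315 to 686 and 615 (1.02 ± 0.10, adjusted p = 0.00122), but a second probe set, at 263 and 304 against 308 and 265, gave 0.02 ± 0.12. Mettl8, a cytosine methyltransferase of mitochondrial tRNA, went from 265 and 211 to 567 and 389 (0.94 ± 0.19), and Trmt61b from 741 and 716 to 1145 and 983 (0.53 ± 0.11). The call of Mettl8 was lost without control replicate 2 (adjusted p = 0.0695), and that of Trmt61b without control replicate 1 (0.0631), control replicate 2 (0.0818) or knockout replicate 1 (0.0578). Mettl15, of the small mitochondrial ribosomal RNA, was at 0.53 ± 0.17 and missed the threshold (adjusted p = 0.0657; 0.0324 without knockout replicate 2). Its other probe set had the opposite sign, at 100.8 and 92.3 against 66.9 and 99.8 (-0.20 ± 0.16).

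The other mitochondrial genes were slightly lower in both knockout arrays, as were 29.3% of all genes, and did not pass the test. Trmt2b was at 758 and 773 against 639 and 649 (-0.24 ± 0.09, adjusted p = 0.108). Nsun3, which starts formylcytosine synthesis in mitochondrial methionine tRNA, was at -0.11 ± 0.11, Nsun4, a methyltransferase of mitochondrial ribosomal RNA, at -0.09 ± 0.10, and Mettl17, a factor of mitochondrial ribosome assembly, at -0.09 ± 0.09. For Nsun3 a dimmer probe set was called lower, from 215 and 214 to 164 and 151 (-0.41 ± 0.10).

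Methyltransferases of messenger, small nuclear and ribosomal RNA rose in 4 of 7 cases. Mettl4, which methylates adenosine in a small nuclear RNA, went from 434 and 370 to 918 and 893 (1.14 ± 0.11, adjusted p = 0.00113), with its other probe set at 0.89 ± 0.14. Nsun5, a cytosine methyltransferase of the large ribosomal RNA, went from 630 and 605 to 1143 and 1104 (0.85 ± 0.10), and Mettl16, which methylates a small nuclear RNA and the messenger of an S-adenosylmethionine synthetase, from 971 and 838 to 1682 and 1426 (0.77 ± 0.13). Mettl5, of the small ribosomal RNA, did not pass (0.33 ± 0.11, adjusted p = 0.0733; 0.0352 without knockout replicate 2). Nsun7 was dim, between 55.4 and 64.7, and did not pass.

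The messenger RNA adenosine methyltransferase pairs the catalytic Mettl3 with the RNA-binding Mettl14. Mettl3 was at 831 and 829 in controls and 846 and 797 in knockouts (-0.02 ± 0.10, adjusted p = 0.931), and its groups overlapped. Mettl14 was at 1579 and 1501 against 2179 and 1952 (0.42 ± 0.10, adjusted p = 0.0266). That call was lost without control replicate 1 (0.0925), control replicate 2 (0.149) or knockout replicate 1 (0.110). Whether the change of Mettl14 differed from that of Mettl3 was not tested.

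Of the 15 other Mettl genes, Mettl7b changed most. It encodes a thiol methyltransferase of the endoplasmic reticulum, and its intensity fell from 233 and 211 to 47.7 and 54.7 (-1.82 ± 0.11, adjusted p = 0.000289), the largest fall among all members. Its paralogs Mettl7a1 and Mettl7a2, near-identical genes between which probe sets may not discriminate, stood at 1386 and 1347 against 1375 and 1440, and at 456 and 455 against 435 and 430. Mettl26 fell by 0.35 on the log2 scale, from 665 and 657 to 506 and 526 (adjusted p = 0.0358). Its adjusted p was between 0.0614 and 0.164 with any 1 of the 4 arrays left out, and its other probe set was not called (-0.27).

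Mettl18, which methylates a histidine of a ribosomal protein, rose from 368 and 319 to 656 and 520 (0.74 ± 0.14), Mettl23, an arginine methyltransferase, from 585 and 593 to 884 and 835 (0.53 ± 0.10) and Mettl27 from 99.4 and 104 to 140 and 150 (0.45 ± 0.10). The pseudogene Mettl4-ps1 was called higher from a control level at background, 30.8 and 26.7, to 51.7 and 43.2, so its fold is not given; its sequence resembles that of Mettl4. Without control replicate 2 the adjusted p was 0.0606 for Mettl18, 0.0512 for Mettl23, 0.0718 for Mettl27 and 0.117 for Mettl4-ps1. Without control replicate 1 it was 0.0547, 0.0990 and 0.0561 for Mettl23, Mettl27 and Mettl4-ps1, and without knockout replicate 1 it was 0.0795 for Mettl4-ps1. Mettl11b was at background in both groups and Mettl24 in controls. The log2 differences of the others that did not pass lay between -0.07 and 0.28.

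The partner list, drawn up with earlier results of these data known, holds 97 measured genes of the same pathways that the naming rule leaves out. Of these 48 rose and 3 fell, 49.5% and 3.09%, beside 13.4% and 10.9% of all genes, and their median log2 difference was 0.38. By subgroup, 20 of 39 tRNA modification genes, 11 of 16 genes of tRNA end processing and splicing, 5 of 18 genes of messenger RNA, 10 of 20 of ribosomal RNA and 2 of 4 of small RNAs rose. The number that rose was 27, 19 and 30 without control replicate 1, control replicate 2 and knockout replicate 1, where 7.26%, 6.26% and 8.02% of all genes were called higher. The number that fell was 1 in each of these fits, where 5.67%, 5.75% and 7.01% of all genes were called lower.

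Of the 3 partners called lower, Hsd17b10 changed by far the most. Hsd17b10, a dehydrogenase that doubles as a subunit of mitochondrial RNase P and binds Trmt10c, fell from 1050 and 881 to 236 and 221 (-2.00 ± 0.12, adjusted p = 0.000282), and its second probe set fell by 2.25 on the log2 scale. Thus of these RNase P subunits Trmt10c rose and Hsd17b10 fell, each by its own test. Rpusd4, a pseudouridine synthase of mitochondria, fell from 362 and 396 to 275 and 286 (-0.41 ± 0.10, adjusted p = 0.0240), and Pcif1, which methylates the adenosine next to the messenger RNA cap, from 236 and 222 to 165 and 178 (-0.39 ± 0.10, adjusted p = 0.0297). Without control replicate 1, control replicate 2 and knockout replicate 1 the adjusted p was 0.0702, 0.157 and 0.0878 for Rpusd4 and 0.165, 0.101 and 0.114 for Pcif1.

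Among tRNA partners that rose, Thg1l, which adds the extra guanosine of histidine tRNA, had the smallest p, at 239 and 222 against 612 and 465 (1.16 ± 0.14). Kti12, an Elongator regulator, rose by 1.03 ± 0.15, Gtpbp3, of wobble uridines in mitochondria, by 0.65 ± 0.10 and the dihydrouridine synthase Dus1l by 0.64 ± 0.10. Ctu1 (0.45 ± 0.13, adjusted p = 0.0409) and Ctu2 (0.54 ± 0.14, adjusted p = 0.0283), which thiolate the wobble uridine after Elongator, rose; without control replicate 2 they were at 0.213 and 0.167, without knockout replicate 1 at 0.166 and 0.127, and Ctu1 without control replicate 1 at 0.0831. The other probe set of Ctu2, at 334 and 343 against 315 and 317, went the other way without passing (-0.09). Wdr4, the partner of Mettl1, rose with its brightest probe set from 321 and 349 to 635 and 493 (0.72 ± 0.14, adjusted p = 0.0100; 0.0625 without control replicate 1), while its other 3 probe sets gave 0.24, 0.13 and -0.56. Trdmt1, a cytosine methyltransferase of tRNA, did not pass (0.26 ± 0.10, adjusted p = 0.100).

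**Figure D4:**
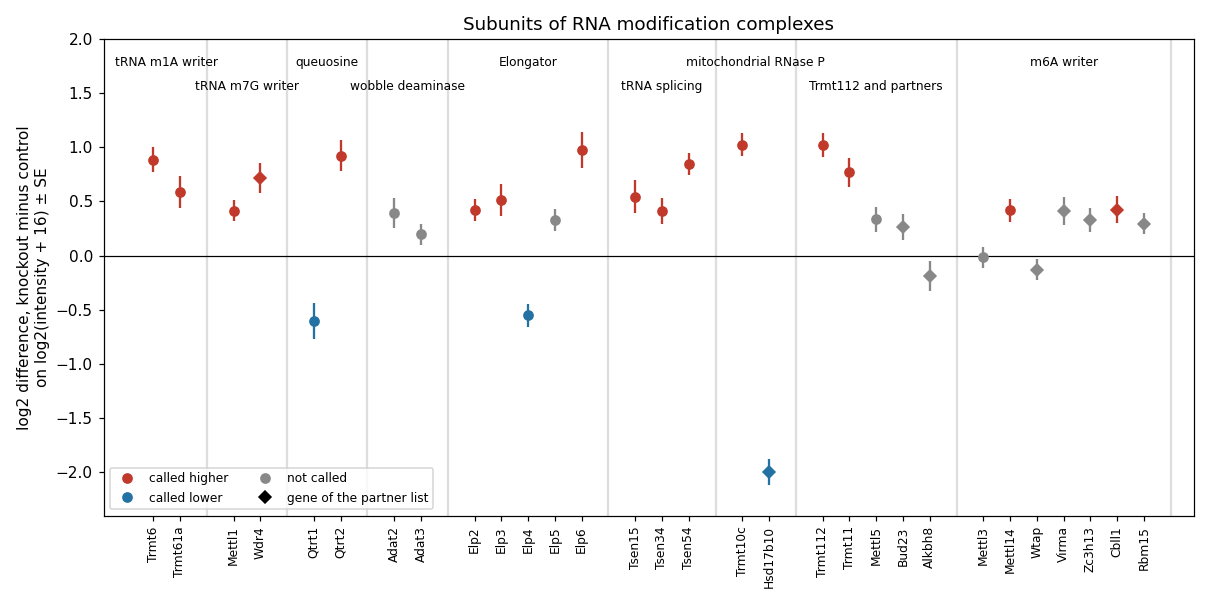
Log2 difference (knockout minus control, on log2(intensity + 16), y axis) ± SE of the subunits of RNA modification complexes, with n = 2 arrays per group; circles are members, diamonds genes of the partner list, and colour marks the call. Qtrt1 and Qtrt2, Elp4 and Elp6, and Trmt10c and Hsd17b10 lie on opposite sides of 0.

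For tRNA ends, the tRNA export receptor Xpot (0.64 ± 0.11), the RNase P subunits Rpp30 (0.90 ± 0.18) and Rpp14 (0.66 ± 0.14) and the tRNA ligase Rtcb (0.44 ± 0.10) rose with the smallest p. Their adjusted p without control replicate 2 was 0.0503, 0.0568, 0.0568 and 0.0593. Without control replicate 1 it was 0.0713 for Rpp14 and 0.121 for Rtcb, and without knockout replicate 1 it was 0.0581 for Rpp30 and 0.0639 for Rtcb.

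Ribosomal RNA partners rose as well, among them the pseudouridylation subunits Nhp2, from 958 and 821 to 2287 and 2046 (1.27 ± 0.12), Nop10 (0.73 ± 0.09) and Dkc1, the catalytic subunit (0.69 ± 0.12). Nop2, the nucleolar relative of the Nsun enzymes, rose by 1.02 ± 0.14 and the ribose methyltransferase Fbl by 0.96 ± 0.10. Dkc1 missed the threshold without control replicate 2 (adjusted p = 0.0566), and another of its probe sets was not called (0.28). Of the small RNA partners, Larp7 rose by 0.75 ± 0.10, and Henmt1 rose by 0.38 ± 0.10 with adjusted p = 0.0271, which was between 0.0557 and 0.136 with any 1 array left out.

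For messenger RNA, the cap methyltransferases Rnmt (0.75 ± 0.11) and Cmtr2 (0.71 ± 0.13), the reader Ythdc2 (0.56 ± 0.10) and Cbll1 (0.42 ± 0.12), a subunit of the Mettl3 complex, rose. Without control replicate 2 the adjusted p of Cmtr2, Ythdc2 and Cbll1 was 0.0574, 0.0616 and 0.196, and Cbll1 was also at 0.120 without control replicate 1 and 0.167 without knockout replicate 1. A further probe set of Rnmt (0.21) and 2 of Cmtr2 (0.38 and -0.14) were not called. Wtap, the adaptor of that complex, was at 3381 and 3480 against 3085 and 3180 (-0.13 ± 0.10, adjusted p = 0.387). Of the demethylases, Fto was at 0.39 ± 0.12 (adjusted p = 0.0522; 0.0220 without knockout replicate 2; -0.12 in another probe set) and Alkbh5 at 0.00 ± 0.10, and neither passed. Virma (0.41 ± 0.13), Zc3h13 (0.33 ± 0.11) and Rbm15 (0.29 ± 0.10), shown because they belong to the same complex, did not pass either. The same holds for Bud23 (0.27 ± 0.12) and Alkbh8 (-0.19 ± 0.14), methyltransferases that need Trmt112, of which Trmt11 rose and Mettl5 did not pass.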

How the data were processed

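RNA from 4 samples, 2 per group by their titles, was measured on Affymetrix arrays, per the labels' protocols. The deposited values are intensity on a linear scale, 1 per probe set; the sources used here do not state their summary, background correction or normalization, and no further scaling was applied. The array has 45101 probe sets, of which 34945 carry 1 gene in GEO's platform annotation, 932 several and 9160 none, besides 64 controls; symbols were updated by Entrez ID through the RefSeq table of GRCm38.p6, which is not known to be the authors' build and gave the promoters. The brightest probe set stood for a gene.

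Tests used limma 3.58.1 in R 4.3.3 (lmFit, eBayes, no block, log2(intensity + 16), all 18193 genes, 7.02 degrees of freedom). SE are of that fit. The code was also run on data simulated from the fitted prior spread, with independent genes. That run could not check whether this prior or independence holds for these arrays. P-values weigh the spread between these 2 arrays per group together with a prior spread pooled over all genes. That prior supplied 5.02 of the 7.02 degrees of freedom. The number of arrays limits the precision. A group mean at or under 35.6, the highest Bacillus median, was taken as background. Detection calls were not used here.

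The members, the partner list and the role groups were chosen with earlier results of these data known. Named were called members, fixed core members (Mettl3, Adat2 and the like), other members so that each is accounted for, and per partner subgroup up to 4 called genes in each direction with the smallest p, plus 10 fixed ones. Alternatives were the pseudocount, scaling, a filter, the probe set, the prior, the replicate block and leaving out arrays.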

Additional observations from a re-analysis of the deposited data

How the results depend on the processing

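Of 39 called members, 15 kept their call in each of the 13 alternatives that tested them, 14 of 35 higher and 1 of 4 lower, and no called member changed sign in any. The number of members called higher was 32 and 35 with pseudocounts of 1 and 64, 33 with median-centred arrays or quantile normalization, 27 with each gene's dimmest probe set and 37 with a trended and robust prior; members called lower numbered 2 with a pseudocount of 1. With 1 array left out, 21 to 38 members were called higher and 1 to 3 lower (21 and 1 without control replicate 2, 2 lower without control replicate 1 or knockout replicate 2), and 22 of the 39 calls held in all 4 such fits; over all genes these fits called 6.26% to 12.6% higher and 5.67% to 11.2% lower. Partner genes called higher were 30 with the dimmest probe set and 19 to 47 with 1 array left out, and partner genes called lower 1 to 3. With the dimmest probe set, Trmt10c, Trmt11, Mettl1, Trmt6, Adat1, Trmt112, Tsen34, Trmt2a, Pus3 and Mettl26 lost their call (log2 difference 0.02, 0.11, 0.18, 0.20, 0.25, 0.27, 0.41, 0.43, 0.51 and -0.27) and Trmt10a gained one (0.99); Trmt112 lost its call also with the most specific one. The labels do not state that replicate numbers pair the samples, and deviations of same-numbered arrays correlated at r = 0.099 across genes, which are not independent; with the replicate block, 41 members were called higher and 4 lower, and 54 and 3 partners. The cause of these shifts was not tested, and the fits with 1 array left out also hold fewer arrays.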

Other observations

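Some probe sets of these genes match several genes and entered no comparison. Of 2 probe sets shared by Adat3 and Scamp4, 1 stood at 587 and 526 in controls and 526 and 525 in knockouts, and the other at 399 and 371 against 470 and 398. A probe set shared by Mettl7a1 and Mettl7a2 was at 1082 and 1002 against 923 and 1010. Another that also matches Mettl7a3, Methig1 and Higd1c was at 907 and 952 against 847 and 938. The probe set shared by Mettl4-ps1 and Spdya lay at background, between 25.1 and 34.6 in the 4 arrays.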
